A study of Mus musculus with 18 samples.

Results

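The leucine tRNAs whose genes carry no intron were the subject here, namely the isoacceptor families tRNA-Leu-AAG, tRNA-Leu-CAG, tRNA-Leu-TAA and tRNA-Leu-TAG (below Leu-AAG, Leu-CAG, Leu-TAA and Leu-TAG), each named by the DNA letters of its anticodon. They were chosen by name from a table of reads on tRNAs and other small RNAs: every entry of a leucine tRNA was taken except those of Leu-CAA, the only leucine family with an intron, which served as the comparison. The 4 families held 13 of the 213 mature tRNAs in the table (3 of Leu-AAG, 4 of Leu-CAG, 3 of Leu-TAA and 3 of Leu-TAG). They also held 19 of the 335 precursor loci, the genes from which unprocessed pre-tRNAs come (5, 9, 2 and 3 loci in the same order).

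The study sequenced tRNA-sized small RNA from the hippocampus of 18 male mice, 1 library per mouse, and asked whether RTP801, a stress-responsive protein, affects the splicing of pre-tRNAs by the tRNA ligase complex. The mice were either WT on a B6SJL background or 5xFAD, a transgenic model of Alzheimer's disease whose transgenes are driven in neurons by the Thy-1 promoter. At 6 months of age each received, on both sides of the hippocampus, an rAAV2/8 vector that expressed GFP and, from the H1 promoter, a short hairpin RNA, either a control sequence (shCT) or one against RTP801 (shRTP801), and the tissue was taken 4 weeks later. There were 5 WT mice with shCT and 4 with shRTP801, and 3 5xFAD mice with shCT and 6 with shRTP801, and mice are named below by the numbers in their labels. All groups, controls included, carried a virus and a hairpin. The vector was directed to neurons of the injected CA1 and dentate gyrus, whereas the RNA came from the whole dissected hippocampus, so the RNA of injected neurons was measured together with that of other cells, and fewer cells of a type and less RNA per cell cannot be told apart. Levels of RTP801 mRNA were not analysed here.

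A pre-tRNA is transcribed by RNA polymerase III with a 5′ leader and a 3′ trailer, which are cut off by RNase P and RNase Z before the CCA end is added. Only pre-tRNAs with an intron also need the splicing endonuclease and the tRNA ligase complex, so the intronless families share end processing with Leu-CAA but not splicing. Base modifications also differ between the families. Leucine is read by several isoacceptors, and leucine tRNAs belong with serine tRNAs to the class with a long variable arm. Leu-CAG reads CUG, a very common leucine codon, Leu-AAG and Leu-TAG read other codons of the CUN box through their wobble bases, and Leu-TAA reads UUA, a rarer codon.

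The libraries held 18126375 to 34488923 reads (median 25226810), of which 9850676 to 20292469 were on mature tRNAs and 47875 to 318628 on pre-tRNAs. Below, the level of a mature family is its percent of all mature tRNA reads of a library, and the level of a pre-tRNA family its percent of all pre-tRNA reads. Intervals are 95% Wilson intervals and cover counting error only. A set of 3 libraries stood apart and are referred to as the low-mt libraries (WT shCT mouse 5, WT shRTP801 mouse 4 and 5xFAD shRTP801 mouse 7). They had 0.00315 to 0.435% of their reads on mitochondrial tRNAs and 0.000348 to 0.0340% on snoRNAs, whereas the other 15 had 8.59 to 39.8% and 0.551 to 6.20%. A set of 22 microRNA and snoRNA entries typical of brain was detected in full, at a median of 17.1 CPM (counts scaled to equal library totals) in WT shCT (0.00 to 58.1), 160 in WT shRTP801 (0.0551 to 294), 58.1 in 5xFAD shCT (42.2 to 201) and 17.5 in 5xFAD shRTP801 (0.0531 to 89.3). The order of the groups was not that of mature tRNA-Arg-TCT-4, a tRNA known from neurons, whose medians were 37.1, 10.2, 6.04 and 26.3 CPM, and Mir126a, a microRNA of endothelium, had medians of 0.0297, 0.0855, 0.479 and 0.0389 CPM. The part of these differences in the results was not tested. The microRNAs looked up as markers of blood, myeloid cells, smooth muscle and liver had 0 entries among the small RNAs counted.

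Among the 4 families Leu-AAG was the most abundant and Leu-TAA the rarest, both as mature tRNA and as pre-tRNA. Mature Leu-AAG made up 0.504% ± 0.205 (SD, n = 18) of the mature reads and ranked 24 of 50 families, close to the median family at 0.477%. Mature Leu-TAG followed at 0.114% ± 0.0590 (rank 40), Leu-CAG at 0.111% ± 0.0863 (rank 41) and Leu-TAA at 0.0478% ± 0.0621 (rank 45). Leu-CAA, the family with an intron, lay among them at 0.102% ± 0.122 (rank 42). The ratio of mature Leu-AAG to Leu-TAG was 2.32 ± 0.66 on the log2 scale (SD, n = 18), above 0 in 18 of 18 libraries (exact sign-flip test, adjusted p = 1.53e-05 over 6 neighbour pairs). Leu-TAG and Leu-CAG did not differ beyond their spread (0.16 ± 1.47, higher in 11 of 18 libraries, exact adjusted p = 0.641). Leu-CAG exceeded Leu-TAA by 1.52 ± 0.56 in 18 of 18 libraries (exact adjusted p = 1.53e-05). These tests of order were added after the data had been seen.

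In the pre-tRNA reads the same order held. Leu-AAG made up 0.306% ± 0.199 (SD, n = 18; rank 29 of 48 families), Leu-TAG 0.157% ± 0.0668 (rank 34), Leu-CAG 0.150% ± 0.139 (rank 35) and Leu-TAA 0.0150% ± 0.0150 (rank 47), against 0.400% ± 0.371 for Leu-CAA (rank 24) and 0.393% for the median family. Leu-AAG was above Leu-TAG by 0.93 ± 0.72 on the log2 scale in 16 of 18 libraries (exact sign-flip test, adjusted p = 4.58e-05), Leu-TAG and Leu-CAG could not be separated (0.43 ± 1.45, exact adjusted p = 0.260), and Leu-CAG was above Leu-TAA by 3.19 ± 0.73 in all 18 (exact adjusted p = 1.53e-05). Without the low-mt libraries Leu-CAG ranked second by mean in both classes, at 0.171% of pre-tRNA and 0.126% of mature reads. Yet it was above Leu-TAG in only 6 of 15 libraries as pre-tRNA and 7 of 15 as mature tRNA (exact adjusted p = 0.857 and 0.456). Pre-tRNA Leu-AAG exceeded Leu-CAG by 0.86 ± 1.43 (exact adjusted p = 0.0538, n = 15). Values are shares of reads and were not divided by length. Taken as 1 group, the 4 families made up 0.776% of the mature reads (range 0.199 to 1.23) and 0.628% of the pre-tRNA reads (0.207 to 1.16).

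Some of the reads behind this order came from isodecoders, tRNAs of 1 anticodon that differ elsewhere, whose reads could not be told apart. In every library Leu-AAG-1 and Leu-AAG-2 had equal numbers of 3′ reads (598110 in all), and Leu-AAG-1, Leu-AAG-2 and Leu-AAG-3 had equal numbers of internal reads (20949). Leu-CAG-1 and Leu-CAG-3 differed by 0.297% in their 3′ reads (58658 and 58494), and the loci Leu-CAG-1-1, Leu-CAG-1-2 and Leu-CAG-1-3 had the same 185 reads each, with 183 at Leu-CAG-3-1. No pair of loci of Leu-AAG or of Leu-TAG had pre-tRNA reads equal to within 5%. A strict count kept, for each family, library and read type, only the isodecoder or locus with the most reads. It removed shared reads but also the unshared reads of the other isodecoders. With it 47.3% of the mature reads of Leu-AAG were left, 59.8% of Leu-CAG, 57.9% of Leu-TAG and 98.7% of Leu-TAA. Of the pre-tRNA reads, 30.2%, 30.4%, 67.9% and 98.5% were left in the same order. On that scale mature Leu-AAG still led at 0.330%, mature Leu-TAA (0.0682%) was below Leu-TAG (0.0921%) in 13 of 18 libraries (exact adjusted p = 0.0530), past no threshold, and pre-tRNA Leu-TAG (0.350%) and Leu-AAG (0.284%) did not differ beyond their spread (0.29 ± 0.79 on the log2 scale, Leu-TAG higher in 11 of 18 libraries, exact adjusted p = 0.158). The order of Leu-AAG and Leu-TAG by mean pre-tRNA share thus depended on the count. On the strict count pre-tRNA Leu-CAG (0.162%) was below Leu-AAG (exact adjusted p = 0.0136) and was not tested against Leu-TAG. Pre-tRNA Leu-TAA was lowest either way (0.0479%, below Leu-CAG in 18 of 18 libraries, exact adjusted p = 4.58e-05). No reads were shared between families beyond entries with a single read.

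Within families a few isodecoders carried most reads. Leu-TAA was in effect 1 tRNA: Leu-TAA-2 held 116726 of the 118232 mature reads, against 1356 for Leu-TAA-1 and 150 for Leu-TAA-3. In Leu-CAG, Leu-CAG-2 led at 0.0647% ± 0.0540 of the mature reads (SD, n = 18), with Leu-CAG-1 and Leu-CAG-3 at 0.0232% and 0.0229%, and Leu-CAG-4 had 154 reads in all. Leu-TAG-3 (0.0668% ± 0.0329) led its family ahead of Leu-TAG-1 (0.0360%) and Leu-TAG-2 (0.0110%). In Leu-AAG, Leu-AAG-1 and Leu-AAG-2 stood at 0.238% each and Leu-AAG-3 at 0.0279%. At the pre-tRNA level Leu-TAG-3-1 was the most abundant single locus of the 19 (0.112% ± 0.0465, 2149 reads), followed by Leu-AAG-2-1 (0.0820%), and Leu-CAG-2-1 (0.0474%) and Leu-TAA-2-1 (0.0125%, 169 reads) led their families. The leading locus and the leading mature tRNA were of the same isodecoder in Leu-CAG, Leu-TAA and Leu-TAG. A further 3 loci were seen in few libraries or with few reads: Leu-TAA-3-1 (29 reads, 0 in 6 libraries), Leu-CAG-1-4 (42 reads, 0 in 4) and Leu-CAG-2-2 (137 reads, 0 in 3).

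**Figure D1:**
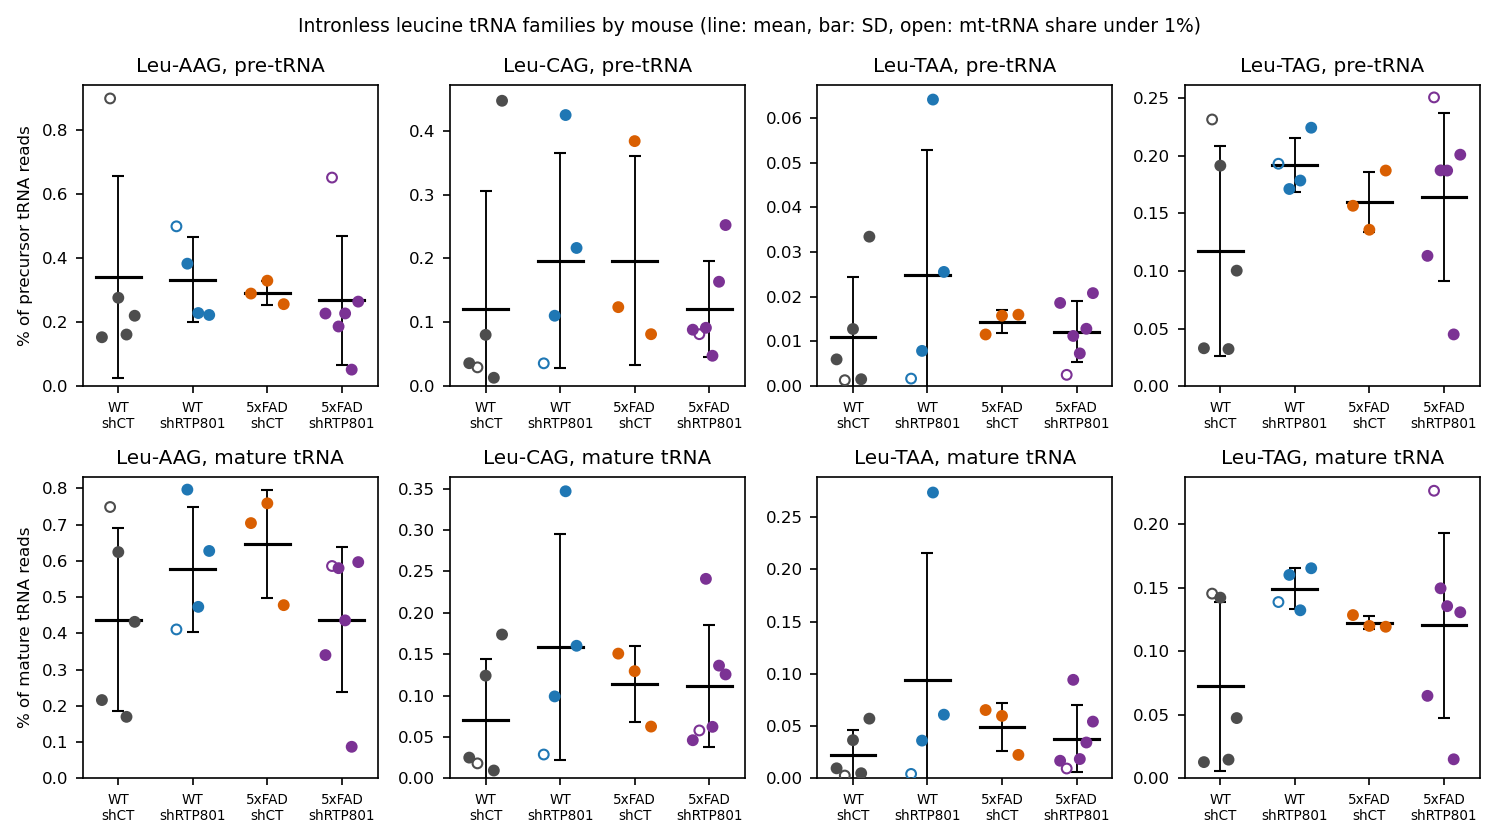
Level of each intronless leucine family in every mouse by group, as percent of pre-tRNA reads (top row) or of mature tRNA reads (bottom row). Each point is 1 mouse, the line is the group mean and the bar the SD (cut at 0), and open points are the low-mt libraries, which hold the 3 highest pre-tRNA values of Leu-AAG (0.498 to 0.897%).

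The mature reads of all 4 families came almost wholly from the 3′ part of the tRNA. Reads ending at the 3′ end made up 94.9% ± 1.95 of mature Leu-AAG, 99.0% ± 0.302 of Leu-CAG, 91.8% ± 5.37 of Leu-TAA and 91.3% ± 3.95 of Leu-TAG (SD, n = 18), and 92.4% in the median family. Internal reads, which reach neither end, were 0.517% of Leu-CAG but 5.02% of Leu-AAG, 7.94% of Leu-TAG and 8.23% of Leu-TAA. Reads from the 5′ end were rarer still, at 0.0110% in Leu-TAA, 0.0441% in Leu-AAG, 0.481% in Leu-CAG and 0.759% in Leu-TAG. No family had more than 4 full-length reads in a library. All pre-tRNA reads of Leu-AAG (7392) and Leu-TAG (3163) were partial reads that overlap the mature sequence and a flank. Leu-CAG had 2052 partial reads and 1 trailer read, and Leu-TAA, with 172 partial reads, was the only one of the 4 with a visible share of 3′ trailers (26 reads).

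The first comparison asked how 5xFAD differed from WT under the control hairpin. On the log2 scale all 4 families were on average higher in 5xFAD shCT, as pre-tRNA and as mature tRNA, but no difference passed the test. Pre-tRNA Leu-AAG was 0.255%, 0.289% and 0.329% in 5xFAD shCT and 0.152%, 0.161%, 0.219%, 0.275% and 0.897% in WT shCT. The highest WT value belonged to mouse 5, a low-mt library (2049 reads, interval 0.859 to 0.937%), and the 3 5xFAD values lay above 3 of the 5 WT values. The log2 change was 0.12 ± 0.65 (SE; limma, adjusted p = 0.912), and 0.56 ± 0.48 without the low-mt libraries (adjusted p = 0.434). This direction turned with the scaling: on the authors' normalized values it was -0.86.

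Pre-tRNA Leu-CAG was 0.0813%, 0.124% and 0.384% in 5xFAD shCT and 0.0130%, 0.0293%, 0.0358%, 0.0802% and 0.447% in WT shCT. Every 5xFAD value exceeded 4 of the 5 WT values, and WT mouse 15 (214 reads, interval 0.391 to 0.511%) exceeded them all, for a log2 change of 1.49 ± 0.96 (limma, adjusted p = 0.349). Leu-TAA, at 0.0115%, 0.0157% and 0.0160% (7 to 11 reads) against 0.00131%, 0.00153%, 0.00597%, 0.0128% and 0.0334% (2 to 16 reads), was a family in which single reads matter (1.09 ± 0.96, adjusted p = 0.493). For Leu-TAG the levels were 0.136%, 0.157% and 0.187% in 5xFAD shCT, inside the WT shCT range of 0.0321%, 0.0328%, 0.100%, 0.191% and 0.232% (0.87 ± 0.63, adjusted p = 0.391, and -0.11 on the authors' normalized values). For all 4 pre-tRNA families the 5xFAD shCT mice lay within the range of the WT shCT mice.

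As mature tRNA the groups overlapped too, with Leu-AAG in 1 and Leu-TAA in 2 of the 3 5xFAD shCT mice above all WT shCT mice. Mature Leu-AAG was 0.478%, 0.704% and 0.759% in 5xFAD shCT and 0.170%, 0.216%, 0.432%, 0.624% and 0.749% in WT shCT (log2 change 0.76 ± 0.59, limma, adjusted p = 0.534). Mature Leu-CAG was 0.0625%, 0.129% and 0.151% against 0.00942%, 0.0180%, 0.0250%, 0.124% and 0.174% (1.40 ± 0.90, adjusted p = 0.501). Leu-TAA was 0.0224%, 0.0598% and 0.0654% against 0.00264%, 0.00487%, 0.00958%, 0.0365% and 0.0571% (1.73 ± 1.11, adjusted p = 0.501). For each of these 3 families the lowest WT values lay far below the 5xFAD values while the highest WT values lay among them or, for Leu-CAG, above them. Mature Leu-TAG was tight in 5xFAD shCT (0.119%, 0.120% and 0.128%) and split in WT shCT, where mice 3 and 11 had 0.0128% (interval 0.0123 to 0.0133) and 0.0147% (0.0141 to 0.0153), mouse 15 had 0.0474%, and mice 6 and 5 had 0.142% and 0.145%. Its log2 change was 1.41 ± 0.83 (adjusted p = 0.501) and 1.82 ± 0.81 without the low-mt libraries (adjusted p = 0.520).

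No member passed limma's test in this comparison, in a background of 0.00% of the 48 pre-tRNA families and 0.00% of the 49 mature families tested. At an unadjusted p under 0.05 limma named 0 of the 4 members in either class, against 12.5% of all pre-tRNA and 4.08% of all mature families. edgeR and DESeq2 on the recovered reads also called 0 members, and 0 of any family, and gave 0 members with an unadjusted p under 0.05, against 5 (edgeR) and 8 (DESeq2) of all 48 pre-tRNA families and 4 of all 49 mature families by each. The 4 members had log2 changes above 0 in both classes, as did 47.9% of all pre-tRNA families and 59.2% of all mature families, and the medians over all families were -0.02 and 0.23. Of single isodecoders, 0 of the 19 loci and 3 of the 10 mature tRNAs tested had an unadjusted p under 0.05 (background 15.6% and 5.38%), none after adjustment (background 0.00% for both). These 3 were Leu-CAG-1 and Leu-CAG-3, which share reads, and Leu-TAG-2. Leu-CAG-3 was 0.0216%, 0.0217% and 0.0362% in 5xFAD shCT and 0.00175%, 0.00349%, 0.00830%, 0.0177% and 0.0227% in WT shCT, with only the highest WT mouse inside the 5xFAD range (log2 change 1.61, limma, adjusted p = 0.539). The locus with the lowest p, Leu-CAG-2-1, was 0.0276%, 0.0511% and 0.155% against 0, 0.00230%, 0.00299%, 0.0219% and 0.223% (2.73 ± 1.49, limma, adjusted p = 0.367), and WT mouse 15 was again the highest.

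The second comparison, 5xFAD shRTP801 against 5xFAD shCT, asked what silencing RTP801 did in the disease model. On the log2 scale all 4 families were on average lower with shRTP801, and none passed the test. Pre-tRNA Leu-AAG in the 6 5xFAD shRTP801 mice ran from 0.0513% (mouse 14, 32 reads, interval 0.0363 to 0.0724) over a median of 0.226% to 0.650% (mouse 7, low-mt, interval 0.623 to 0.679). Leu-CAG ran from 0.0475% over 0.0898% to 0.252%, Leu-TAA from 0.00251% over 0.0120% to 0.0208%, and Leu-TAG from 0.0449% over 0.187% to 0.251%. Each of these ranges overlapped the 3 5xFAD shCT values given above. The log2 changes were -0.46 ± 0.63 for Leu-AAG, -0.58 ± 0.92 for Leu-CAG, -0.43 ± 0.93 for Leu-TAA and -0.13 ± 0.61 for Leu-TAG (limma, adjusted p = 0.756, 0.779, 0.840 and 0.867), and all 4 were above 0 on the authors' normalized values (0.38, 0.25, 0.30 and 0.71).

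Mature Leu-AAG in 5xFAD shRTP801 ran from 0.0870% over a median of 0.508% to 0.597%, Leu-CAG from 0.0460% over 0.0938% to 0.241%, Leu-TAA from 0.00939% over 0.0264% to 0.0943%, and Leu-TAG from 0.0150% over 0.133% to 0.226%. Mouse 14 was the lowest of the group for Leu-AAG and Leu-TAG but not for Leu-CAG (0.136%) or Leu-TAA (0.0343%). The log2 changes were -0.77 ± 0.57, -0.18 ± 0.87, -0.62 ± 1.07 and -0.41 ± 0.80 (limma, adjusted p = 0.949 for each). On the authors' normalized values those of Leu-CAG and Leu-TAG turned to 0.37 and 0.13. Here too limma called 0 members (background 0.00% of pre-tRNA and 0.00% of mature families), with 0 at an unadjusted p under 0.05 (background 4.17% and 2.04%). edgeR and DESeq2 called 0 of any family, with 0 members and 4 (edgeR) and 6 (DESeq2) of all pre-tRNA and 0 and 3 of all mature families at an unadjusted p under 0.05. The median over all families was -0.16 for pre-tRNAs and -0.17 for mature tRNAs, and 39.6% and 34.7% of all families had a log2 change above 0, against 0 of the 4 members in each class. Of loci and mature isodecoders, limma called 0 members (background 0.00% for both) and 0 had an unadjusted p under 0.05 (background 7.51% and 1.08%). The lowest p among them were those of Leu-AAG-3-1 (log2 change -1.16, limma, adjusted p = 0.649) and mature Leu-AAG-3 (-0.94, adjusted p = 0.955).

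**Figure D2:**
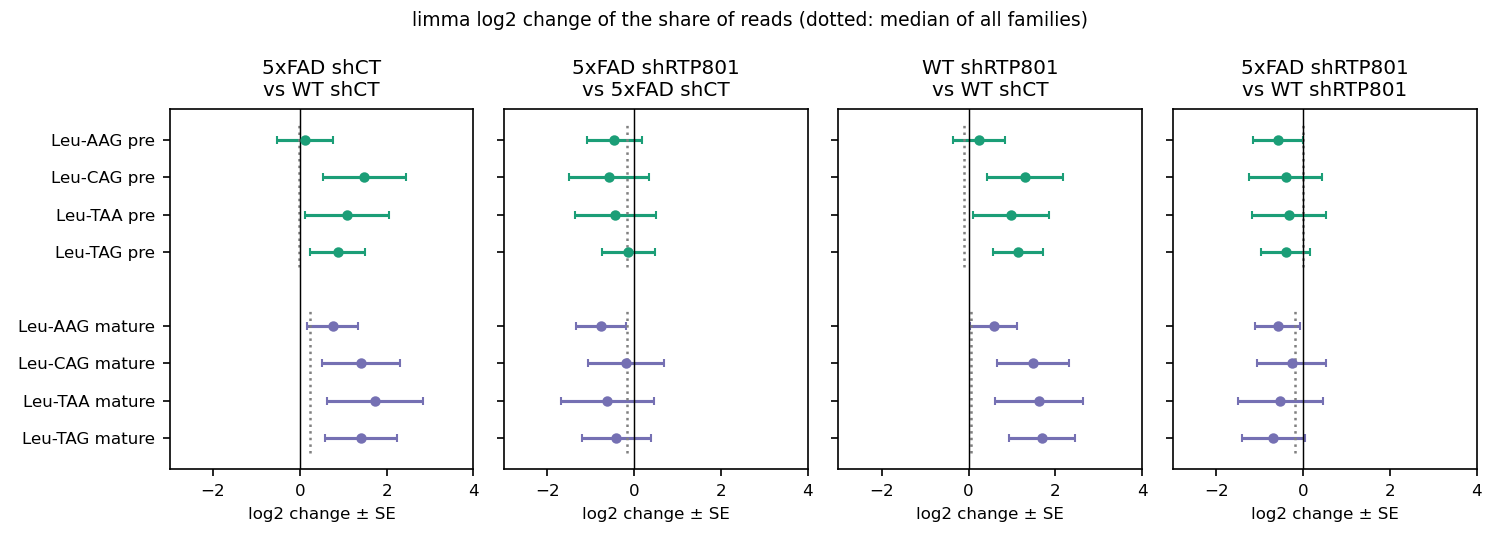
Log2 change of each family in 4 comparisons, as pre-tRNA and as mature tRNA. Points are limma estimates on log2 shares, bars are 1 SE, and the dotted line is the median of all families tested. The points of the 4 families lie above 0 in both comparisons against WT shCT and below 0 in the other 2, and none of them passed limma's adjusted test.

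The effect of silencing in WT mice, WT shRTP801 against WT shCT, gave the lowest unadjusted p of a family among the 4. Mature Leu-TAG was 0.132%, 0.139%, 0.160% and 0.165% in WT shRTP801, a narrow band, against 0.0128%, 0.0147%, 0.0474%, 0.142% and 0.145% in WT shCT. Of the 5 control mice, 3 lay below the whole shRTP801 group and 2 inside it. The log2 change was 1.68 ± 0.76 (limma, adjusted p = 0.343), 2.13 ± 0.81 without the low-mt libraries (adjusted p = 0.186), and between 1.24 and 2.10 when each mouse was left out. An exact two-sided permutation test on the difference between the mean shares of 0.149% ± 0.0160 (SD, n = 4) and 0.0724% ± 0.0665 (SD, n = 5) gave p = 0.0952 (adjusted 0.583). The smallest p this design allows is 0.00794. Pre-tRNA Leu-TAG went the same way, at 0.171%, 0.179%, 0.193% and 0.224% in WT shRTP801 (1.13 ± 0.58, limma, adjusted p = 0.388).

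The other families were wider. Pre-tRNA Leu-CAG was 0.0356%, 0.110%, 0.216% and 0.425% in WT shRTP801 (log2 change 1.31 ± 0.88, limma, adjusted p = 0.414) and Leu-TAA 0.00167%, 0.00787%, 0.0255% and 0.0641% (3 to 56 reads, 0.98 ± 0.88, adjusted p = 0.542). Leu-AAG was 0.222%, 0.228%, 0.382% and 0.498% (0.23 ± 0.60, adjusted p = 0.848), with a change below 0 by the count models (edgeR -0.055, DESeq2 -0.040). For Leu-CAG and Leu-TAA the low-mt library, mouse 4, was the lowest of the group, and for Leu-AAG it was the highest. As mature tRNA, Leu-AAG was 0.411%, 0.473%, 0.627% and 0.797% (0.57 ± 0.54, adjusted p = 0.776), Leu-CAG 0.0287%, 0.0989%, 0.160% and 0.347% (1.48 ± 0.83, adjusted p = 0.555), and Leu-TAA 0.00421%, 0.0361%, 0.0610% and 0.274% (1.63 ± 1.02, adjusted p = 0.570). Mouse 17 held the highest mature Leu-CAG and Leu-TAA of all 18 mice (Leu-TAA 39226 reads, interval 0.271 to 0.276%). Without the low-mt libraries mature Leu-TAA differed by 2.16 ± 0.87 (adjusted p = 0.186). Leaving out 1 mouse at a time moved mature Leu-TAA between 0.73 and 2.64 and pre-tRNA Leu-TAA between 0.25 and 1.79.

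In WT limma again called 0 members, in a background of 0.00% of the pre-tRNA and 0.00% of the mature families. Mature Leu-TAG was the 1 family of the 4 with an unadjusted p under 0.05, against 12.2% of all mature families, and 0 of the 4 pre-tRNA families had one, against 4.17%. By edgeR and by DESeq2 on recovered reads 0 members were called, and 1 mature family and 0 pre-tRNA families of the 4 had an unadjusted p under 0.05. Of all mature families 5 had one by edgeR and 6 by DESeq2, of all pre-tRNA families 2 and 3, and DESeq2 called 1 mature family of all 49, not one of the 4, where edgeR called 0. The 4 members had log2 changes above 0 in both classes, beside 41.7% of all pre-tRNA and 55.1% of all mature families (medians -0.11 and 0.05). Both this comparison and the first share the 5 WT shCT mice, so their directions are not independent. At the level of loci and isodecoders, 5 of 19 loci and 4 of 10 mature tRNAs had an unadjusted p under 0.05 (background 10.2% and 10.8%) and 0 passed after adjustment (background 0.00% for both). The 5 loci were Leu-TAG-3-1 and 4 loci of Leu-CAG that share reads (Leu-CAG-1-1, Leu-CAG-1-2, Leu-CAG-1-3 and Leu-CAG-3-1). Leu-TAG-3-1 was 0.112%, 0.126%, 0.138% and 0.180% in WT shRTP801 and 0.0237%, 0.0239%, 0.0710%, 0.120% and 0.140% in WT shCT (1.21 ± 0.56, limma, adjusted p = 0.474). Leu-CAG-1-1 rested on 6, 10, 10 and 51 reads against 2, 2, 2, 9 and 12 (1.53 ± 0.68, adjusted p = 0.474). The 4 mature tRNAs were Leu-CAG-1 and Leu-CAG-3 (log2 change 1.61 for both, limma, adjusted p = 0.336), Leu-TAG-1 (1.59, adjusted p = 0.457) and Leu-TAG-2. Mature Leu-TAG-2 was 0.0108%, 0.0113%, 0.0169% and 0.0223% against 0.00107%, 0.00108%, 0.00438%, 0.00915% and 0.0144% (1.61 ± 0.62, limma, adjusted p = 0.336), and 4 of the 5 WT shCT mice lay below all WT shRTP801 mice.

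Finally, 5xFAD and WT were compared under shRTP801. Log2 changes of the pre-tRNAs were -0.58 for Leu-AAG, -0.40 for Leu-CAG, -0.33 for Leu-TAA and -0.40 for Leu-TAG (limma, adjusted p = 0.966 for each), and of the mature tRNAs -0.59, -0.26, -0.53 and -0.68 (adjusted p = 0.858 for each). The ranges of the 2 groups, given above, overlapped in every family. limma called 0 members (background 0.00% of pre-tRNA and 0.00% of mature families) with 0 at an unadjusted p under 0.05 (background 6.25% and 0.00%). edgeR and DESeq2 called 0 of any family and gave 0 members, 1 and 2 of all pre-tRNA families and 1 and 2 of all mature families an unadjusted p under 0.05. Of all families 47.9% and 36.7% had a log2 change above 0, against 0 of the 4 members in each class, and the medians over all families were -0.01 and -0.19. Of loci and mature isodecoders 0 members passed (background 0.00% for both) and 0 had an unadjusted p under 0.05 (background 2.10% and 0.538%), the lowest p being those of Leu-CAG-1-1 (-0.97, limma, adjusted p = 0.991) and mature Leu-AAG-3 (-0.74, adjusted p = 0.986). The effect of silencing was also compared between the genotypes through an interaction term, and 0 of the 8 tests of the members passed (lowest adjusted p = 0.371 by limma; background 0.00%). Of the 10 mature isodecoders tested, 2 had an unadjusted p under 0.05 for the interaction, beside 18 of all 186 mature tRNAs. These were Leu-AAG-3 (-1.89 ± 0.76) and Leu-TAG-2 (-2.16 ± 0.91; limma, adjusted p = 0.390 for both). A difference in the effect of silencing between 5xFAD and WT was therefore not detected for any of the 4 families. Over all 4 comparisons 0 of the 4 families, in either class, had groups that did not overlap. In the order of the text, the share of all families whose groups did not overlap was 4.17%, 8.33%, 0.00% and 0.00% for pre-tRNAs and 6.12%, 2.04%, 0.00% and 0.00% for mature tRNAs.

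To relate the intronless families to splicing, the ratio of Leu-CAA pre-tRNA to each of them was taken within every library. Leu-CAA exceeded Leu-TAA in each group: the log2 ratio was 3.75 ± 1.35 (SD, n = 5) in WT shCT, 3.66 ± 1.25 (n = 4) in WT shRTP801, 5.94 ± 0.82 (n = 3) in 5xFAD shCT and 4.17 ± 0.94 (n = 6) in 5xFAD shRTP801. The 3 5xFAD shCT mice ran from 5.00 to 6.56, the WT shCT mice from 2.07 to 5.29 and the 5xFAD shRTP801 mice from 2.88 to 5.32, so the groups overlapped at their edges. The difference was 2.19 between 5xFAD shCT and WT shCT (exact permutation test, p = 0.0714, adjusted p = 0.476 over 16 tests) and -1.77 between 5xFAD shRTP801 and 5xFAD shCT (exact p = 0.0595, adjusted p = 0.476). Without the low-mt libraries they were 1.92 and -1.67. The smallest p these group sizes allow is 0.0179 and 0.0119.

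Against the other intronless families the ratio was also highest on average in 5xFAD shCT, with wide controls. The log2 ratio of Leu-CAA to Leu-AAG was 1.68 ± 0.86 in 5xFAD shCT and -1.67 ± 3.52 in WT shCT (exact p = 0.161), that to Leu-CAG 2.56 and 0.59 (difference 1.96, exact p = 0.179), and that to Leu-TAG 2.54 ± 0.50 and -0.05 ± 3.18 (exact p = 0.232). None of the 16 tests passed after adjustment. The spread of WT shCT came in part from its low-mt library: without it the means were -0.46 ± 2.61 for Leu-AAG and 1.07 ± 2.24 for Leu-TAG (n = 4). Pre-tRNA Leu-CAA was 0.00963 to 0.0333% of pre-tRNA reads in the low-mt libraries and 0.00765 to 1.28% in the other 15, whereas pre-tRNA Leu-AAG was 0.498 to 0.897% and 0.0513 to 0.382%, so in this ratio the low-mt libraries move both terms.

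**Figure D3:**
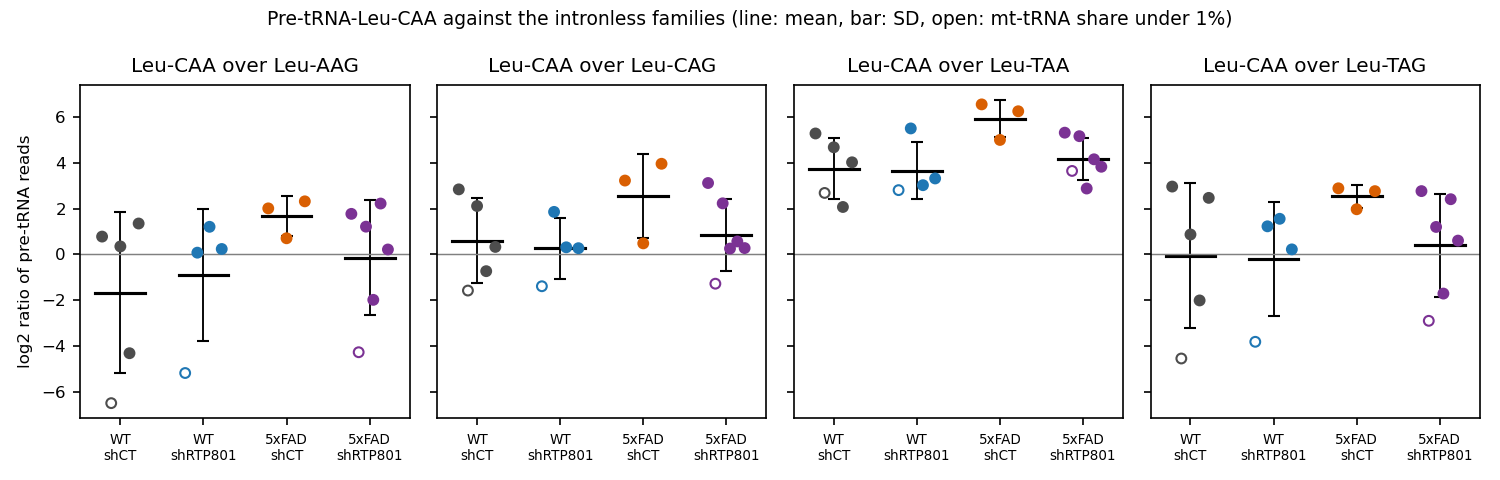
Log2 ratio of pre-tRNA reads of Leu-CAA, the leucine family with an intron, to each intronless leucine family, by group. Points are mice, lines are group means, bars are SD, and open points are the low-mt libraries. For Leu-TAA the 3 5xFAD shCT mice lie at 5.00 to 6.56 and the 5 WT shCT mice at 2.07 to 5.29.

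The ratio of pre-tRNA to mature reads, a measure of unprocessed against finished tRNA of the same family, passed the test for 0 of the 4 families in any comparison, in a background of 0.00% of all families. The lowest p of the 4 was that of Leu-TAG in 5xFAD shCT against WT shCT (log2 change -0.78 ± 0.53, limma, adjusted p = 0.517), close to the median of all families in that comparison (-0.50). The same ratio of Leu-CAA differed by 1.82 ± 0.86 there, with an unadjusted p under 0.05, (limma, adjusted p = 0.517) and by -1.83 ± 0.83 in 5xFAD shRTP801 against 5xFAD shCT (adjusted p = 0.613), neither past the adjusted threshold. Of the read types, only the share of 5′ reads in mature Leu-CAG had an unadjusted p under 0.05 in 5xFAD shCT against WT shCT. It was 0.293% ± 0.0926 (n = 3) in 5xFAD shCT, 0.592% ± 0.156 (n = 5) in WT shCT, 0.466% ± 0.147 (n = 4) in WT shRTP801 and 0.493% ± 0.120 (n = 6) in 5xFAD shRTP801 (log2 change -1.03 ± 0.40, limma, adjusted p = 0.485). Leu-CAG-1 and Leu-CAG-2 had equal 5′ reads (564 each in all), so most 5′ reads of the family could not be told apart. The library with the fewest held 12. Of all 49 families, 8.16% had such a p for 5′ reads and 0.00% passed after adjustment.

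Some of the 4 families varied together from mouse to mouse. In the 15 libraries other than the low-mt ones, mature Leu-CAG and Leu-TAA varied together, with Pearson r = 0.958 and Spearman rho = 0.936 between log2 shares (permutation test, adjusted p = 7e-05 and 0.00023 over 35 relations, n = 15). The value was 0.946 without the 2 libraries farthest from the median and 0.951 after removing group means. As pre-tRNAs they gave r = 0.883 and rho = 0.796 (adjusted permutation p = 0.00012 and 0.00355, n = 15), 0.776 without the 2 farthest libraries and 0.862 within groups. This was not particular to the pair, since mature Ser-GCT had r = 0.990 with Leu-CAG and 0.960 with Leu-TAA in the same 15 libraries (a description, with no p). Mature Leu-CAA also varied with both, at r = 0.957 with Leu-CAG and 0.972 with Leu-TAA (adjusted permutation p = 7e-05 for both, n = 15). Shares within 1 library depend on each other and on the library's makeup. The snoRNA share of a library correlated with pre-tRNA Leu-CAA (r = 0.844), Leu-CAG (0.697) and Leu-TAA (0.658; permutation test, adjusted p = 0.00194, 0.0123 and 0.0219). Without the 2 farthest libraries r was 0.596, 0.443 and 0.384. With pre-tRNA Leu-AAG and Leu-TAG r was 0.420 and 0.417 (adjusted p = 0.133 and 0.126). The 5xFAD shCT libraries had 4.86 to 6.20% snoRNA reads, and WT shCT outside the low-mt set 0.691 to 4.49%. The part of this in the Leu-CAA ratios was not tested.

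For Leu-AAG with Leu-TAG no pooled correlation is given because 3 libraries formed a separate cluster. WT shCT mice 3 and 11 and 5xFAD shRTP801 mouse 14 had mature Leu-TAG at 0.0128 to 0.0150%, while the next 2 libraries had 0.0474 to 0.0649% and the other 10 of the 15 had 0.119 to 0.165%. The same 3 mice were lowest for mature Leu-AAG (0.0870 to 0.216%, against 0.340 to 0.797% in the other 12), for pre-tRNA Leu-AAG (0.0513 to 0.161% against 0.186 to 0.382%) and for pre-tRNA Leu-TAG (0.0321 to 0.0449% against 0.100 to 0.224%). Their Leu-CAG and Leu-TAA levels overlapped those of the other 12. Within these 12 libraries r between Leu-AAG and Leu-TAG was 0.65 for mature tRNAs and -0.02 for pre-tRNAs. Of the 3 mice, 2 belong to WT shCT, the shared control, and their part in the differences against WT shCT is seen in the mature Leu-TAG values above.

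**Figure D4:**
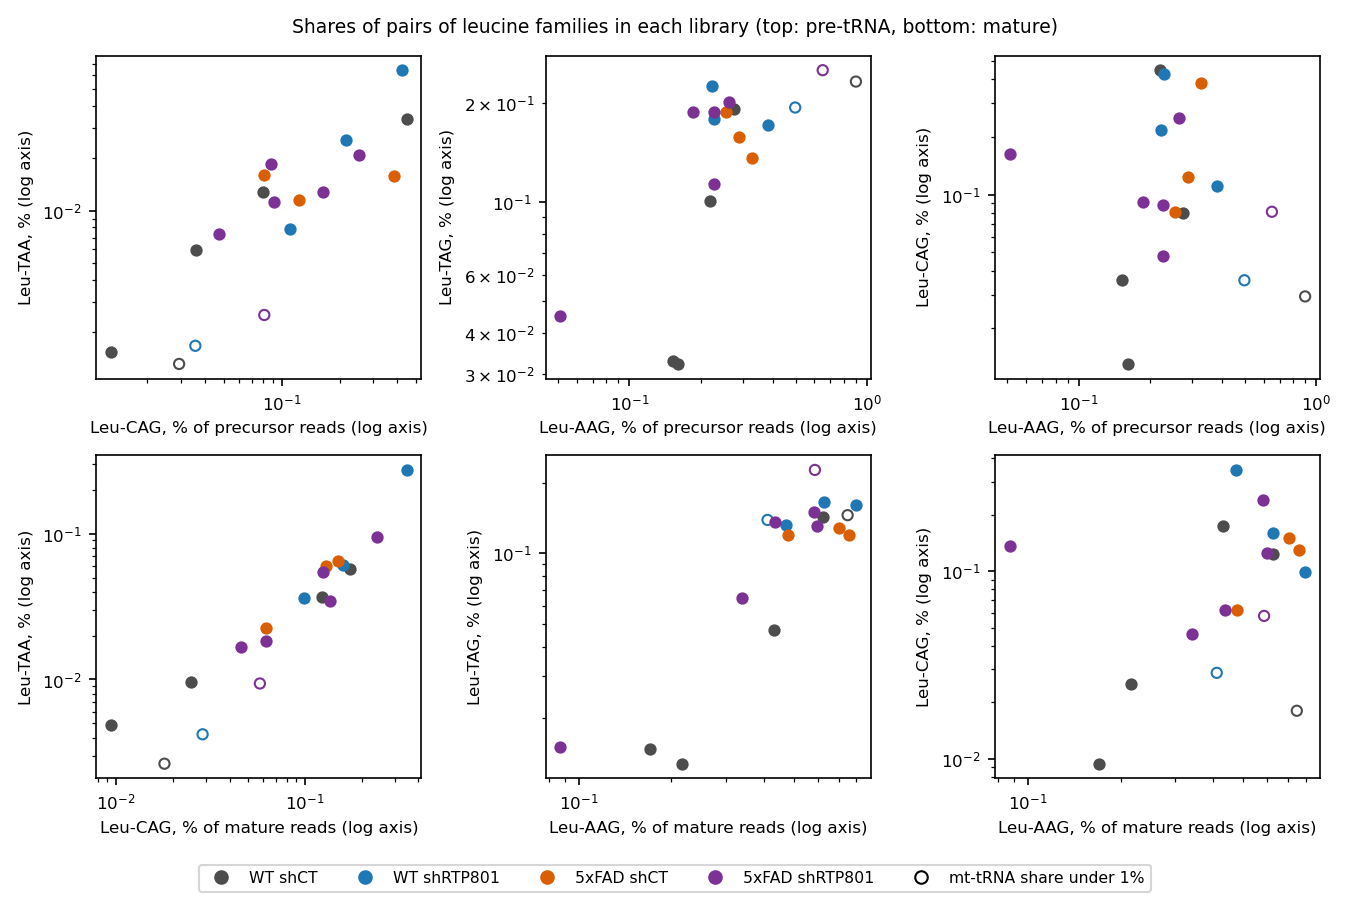
Pairs of intronless leucine families in each mouse on logarithmic axes, as percent of pre-tRNA reads (top) or mature tRNA reads (bottom), coloured by group, with open points for the low-mt libraries. Leu-CAG and Leu-TAA lie along 1 line (mature r = 0.958 over 15 libraries), and in the Leu-AAG and Leu-TAG panels 3 filled points lie apart at low values of both families.

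Levels of pre-tRNA and mature tRNA of the same family varied together across mice. In the 12 libraries outside both the low-mt set and the cluster of 3, r was 0.672 for Leu-AAG, 0.625 for Leu-CAG, 0.623 for Leu-TAA and 0.899 for Leu-TAG. For Leu-CAA it was 0.105 in these 12 libraries but 0.541 in all 15, where Leu-CAG had 0.839 and Leu-TAA 0.805, so its value depended on the 3 libraries. Each value is a description, and the difference between families was not tested.

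The families whose log2 shares most resembled those of each member over all 18 libraries are given as a description, with no p. For mature Leu-CAG they were Leu-CAA (r = 0.964), Leu-TAA (0.946) and Ser-GCT (0.940), and for mature Leu-TAA they were Leu-CAA (0.974), Leu-CAG and Ser-GCT (0.830). Pre-tRNA Leu-CAG was most like Ser-GCT (0.938), Leu-TAA (0.858) and Ser-AGA (0.855), and pre-tRNA Leu-TAA was most like Leu-CAG, SeC-TCA (0.833) and Ser-GCT (0.829). These neighbours are leucine, serine and selenocysteine families, which share the long variable arm. Leu-AAG and Leu-TAG have that arm too, but most of their nearest families, named below, are outside this class. A part of the arm in the likeness was not tested. For Leu-AAG and Leu-TAG no r is printed because of the 3 low libraries, except for Glu-TTC below. The nearest families were His-GTG, Leu-TAG and Pro-AGG for mature Leu-AAG and His-GTG, Asp-GTC and Leu-AAG for mature Leu-TAG. Among pre-tRNAs they were His-GTG, Leu-TAG and Glu-TTC for Leu-AAG and Asp-GTC, His-GTG and Pro-TGG for Leu-TAG. The likeness of pre-tRNA Glu-TTC to Leu-AAG rested on the low-mt libraries: r was 0.667 over all 18 libraries and 0.007 over the other 15.

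The comparison families behaved as follows. Of the families with an intron or a long variable arm, 0 passed limma's adjusted test in any comparison. In 5xFAD shCT against WT shCT, pre-tRNA Leu-CAA (log2 change 3.43 ± 1.48), Ser-AGA (2.34), Ser-GCT (2.84) and Tyr-GTA, a family with an intron (2.03), had an unadjusted p under 0.05 (limma, adjusted p = 0.284 for Tyr-GTA and 0.312 for the other 3). In the exact permutation test p was 0.0357 for Leu-CAA and for Tyr-GTA, but 0.196 for Ser-AGA and 0.482 for Ser-GCT. Of all 48 pre-tRNA families, 6 by limma and 2 by the exact test had an unadjusted p under 0.05. The other intron families, Ile-TAT (1.99) and Arg-TCT (1.58), had no unadjusted p under 0.05 by either test, nor did the other families with a long variable arm (SeC-TCA 3.51, Ser-CGA 1.21 and Ser-TGA 0.74) or the intronless leucine families. In 5xFAD shRTP801 against 5xFAD shCT the exact p was 0.0119 for pre-tRNA Tyr-GTA, 0.0238 for Arg-TCT, Leu-CAA and SeC-TCA, and 0.0357 for Ser-GCT. All 5 were lower with shRTP801 (exact adjusted p = 0.190, and 0.245 for Ser-GCT). Ile-TAT, Ser-AGA, Ser-CGA and Ser-TGA had no exact p under 0.05 there. Of all 48 pre-tRNA families 8 had one, and 0 passed after adjustment. Whether the changes of these pre-tRNAs differ from those of the 4 families was tested only through the ratios to Leu-CAA above. The mitochondrial leucine tRNAs, which are encoded in mitochondrial DNA and matured there, were compared without the low-mt libraries, whose mitochondrial reads were few. As percent of mitochondrial tRNA reads, in the order WT with shCT, WT with shRTP801, 5xFAD with shCT and 5xFAD with shRTP801, mt-Tl1 was 2.45% ± 0.906 (SD, n = 4), 2.32% ± 0.650 (n = 3), 2.14% ± 0.587 (n = 3) and 2.63% ± 1.60 (n = 5) and mt-Tl2 was 0.207%, 0.160%, 0.191% and 0.238%. A low-mt library held the highest mt-Tl1 value of each of its 3 groups, at 8.50 to 26.4%.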

How the data were processed

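Small RNA was sequenced from 18 mouse hippocampi. The authors counted reads on tRNAs and other small RNAs with tRAX (build mm39 per the submitters' processing notes; the aligner, tool versions and size factor method are not given in the sources used here) and deposited 1 table of reads divided by a size factor per library, a normalized signal. Because 100% of the deposited signal values were whole multiples of 1 read (tolerance 1e-06), reads were recovered; 324 near-identical copies of small RNA entries were left out. Per library, the 4 kinds of mature read and the 3 kinds of precursor read were summed by family, and the share of all mature or precursor reads was taken as log2(percent + 0.001). Features under a mean of 0.001% were not tested, leaving 48 precursor and 49 mature families, 333 loci and 186 mature tRNAs. Of the intronless leucine entries, 19 of 19 loci and 10 of 13 mature tRNAs were tested. A 4-group model was fitted to all features with limma 3.58.1 (R 4.3.3), with Benjamini-Hochberg adjustment over all features and a threshold of 0.05. edgeR 4.0.16 and DESeq2 1.42.0 were run on the recovered reads as alternatives. Exact permutation tests over all regroupings and the permutations of the correlations (100000) were run in numpy 2.4.6. Tests of level order used sign flips over libraries. Spearman coefficients and Wilson intervals used scipy 1.17.1. In the Leu-CAA ratios 0.5 reads were added to both terms. Other alternatives were a larger pseudocount, no filter, the authors' normalized values, the snoRNA share as a covariate, leaving out the low-mt libraries and leaving out each mouse. Keeping only the isodecoder with the most reads of each read type, the tests of level order and the correlations within the 12 libraries were added after the data had been seen. Scripts were tested on simulated data. The families named, the comparison lists and these tests were chosen with earlier results of these data known. Each library is 1 mouse and depth is given in the text. Loci and mature tRNAs are named where they were the most abundant of a family, had the lowest p in a comparison or an adjusted p under 0.05, and, chosen after their values were seen, where the unadjusted p was under 0.05 or reads were few or shared; the 3 families most like each member over 18 libraries are named too.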

Additional observations from a re-analysis of the deposited data

Results flagged for a closer look

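Of 24 groups of 4 to 6 mice examined for a single mouse far from the others, 3 held one. The cut-offs used assume normal values and independent groups. Pre-tRNA and mature values come from the same mice, so no chance rate is given. Pre-tRNA Leu-AAG was 0.897% in WT shCT mouse 5 against 0.152 to 0.275% in the other 4 (gap over range 0.835), and 0.650% in 5xFAD shRTP801 mouse 7 against 0.0513 to 0.263% in the other 5 (0.646). Both are low-mt libraries. Pre-tRNA Leu-CAG was 0.447% in WT shCT mouse 15 against 0.0130 to 0.0802% in the other 4 (0.845), and this mouse is not a low-mt library. The mature levels of these mice were not singled out by the same measure. The difference in the effect of silencing between the genotypes passed limma's adjusted test for 0 of the 8 families.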

How the results depend on the processing

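The 38 counts of members passing a test stayed at 0 in all 888 combinations of a count with an alternative setting. For 48 log2 changes and ratios there were 1215 combinations of a value with an alternative setting. Of these, 37 turned direction, in 15 of the values, and none of those 37 passed a threshold. The cause was not tested. For 5xFAD shCT against WT shCT, pre-tRNA Leu-AAG was -0.86 on the authors' normalized values, -0.34 by edgeR and -0.33 by DESeq2, and on the normalized values pre-tRNA Leu-TAG was -0.11 and mature Leu-AAG -0.011. For 5xFAD shRTP801 against 5xFAD shCT, the normalized values, edgeR and DESeq2 gave 0.38, 0.12 and 0.026 for pre-tRNA Leu-AAG, 0.71, 0.23 and 0.17 for pre-tRNA Leu-TAG, 0.37, 0.12 and 0.075 for mature Leu-CAG and 0.13, 0.14 and 0.048 for mature Leu-TAG. In the same comparison the normalized values gave 0.25 for pre-tRNA Leu-CAG and 0.30 for pre-tRNA Leu-TAA. There the snoRNA covariate gave 0.32 for pre-tRNA Leu-TAA, 0.32 for mature Leu-CAG and 0.19 for mature Leu-TAA. Keeping only the isodecoder with the most reads of each read type gave 0.010 for mature Leu-CAG. For WT shRTP801 against WT shCT, pre-tRNA Leu-AAG was -0.055 by edgeR and -0.040 by DESeq2. Leaving out 1 mouse at a time turned the direction in 9 values. These were pre-tRNA Leu-AAG in 5xFAD shCT against WT shCT (-0.079 to 0.56), in 5xFAD shRTP801 against 5xFAD shCT pre-tRNA Leu-CAG (-1.06 to 0.057), pre-tRNA Leu-TAG (-0.29 to 0.20), mature Leu-CAG (-0.57 to 0.061) and mature Leu-TAG (-0.67 to 0.10), and in 5xFAD shRTP801 against WT shRTP801 pre-tRNA Leu-CAG (-1.05 to 0.13), pre-tRNA Leu-TAA (-1.13 to 0.40), mature Leu-CAG (-0.90 to 0.28) and mature Leu-TAA (-1.54 to 0.37). No paired analysis was possible because each mouse number belongs to 1 mouse and no number occurs in 2 groups. Pre-tRNA Leu-TAA, with 2 to 56 reads in a library, is the family most limited by depth.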
